A study of Mus musculus with 82 samples.

Results

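The regions described here are the 3003 CDX2-bound regions that were found in mouse stembryos at 96 h and had no counterpart at 120 h. They were chosen by the CDX2 peak lists themselves: a region of the 96 h list was kept when no region of the 120 h list overlapped it by 1 base or more. They made up 66.7% of the 4501 regions at 96 h. The other 1498 regions of that list were shared with 120 h, and 771 of the 2272 regions at 120 h had no 96 h counterpart, which gives the sets named below as 96 h only, shared and 120 h only. Stembryos grow from clumps of mouse embryonic stem cells, which lengthen into a trunk-like structure once the Wnt agonist Chiron has been given from 48 h to 72 h of culture. The series followed their chromatin by immunoprecipitation and sequencing, by ChIP-seq or the transposase-based ChIPmentation, and each library was made from pooled stembryos. CDX2 was assayed in wild-type stembryos at 72 h, 96 h and 120 h with 1 library per stage, so its own change between stages has no replicate check and carries no test.

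The marks set against these regions came from wild-type stembryos, except where a mutant is named. H3K27ac was available at 9 wild-type stages between 48 h and 168 h, with 1 library per stage but 3 at 120 h and 3 at 96 h. It was also available in 2 libraries per stage, at 120 h and 96 h, from each of 2 mutants. Del(CBS1) and Del(CBS1-2) lack the first, or the first and second, CTCF binding site of the HoxD cluster. Both came from edited and selected clones of the wild-type 129/SVEV stem cell line, Del(CBS1-2) by a second deletion in Del(CBS1) cells. NIPBL had 1 library at each of 8 stages, and RAD21 had 16 libraries at 8 wild-type stages, with 3 at 144 h and 3 at 96 h. The labels do not say that libraries of a group came from separate cultures, and the study states this only for some of them, so p-values measure the spread between these libraries. The files were peak lists without read totals. H3K27ac lists held 24002 to 67663 regions, NIPBL lists 4888 to 40490 and RAD21 lists 31823 to 71196, and the share of any set of regions that meets a mark rises with the length of that mark's list. RAD21 replicate 1 at 96 h stood apart from the other 2 libraries of its stage, and the tested RAD21 differences are given with and without it. Other RAD21 values that use 96 h include it unless a replicate is named or left out. The label that these are CDX2 regions was checked against CDX recognition words, which lay within 50 bp of the summit, the position of highest CDX2 coverage, in 33.8% of the 96 h only regions. The same words lay within 50 bp of the summit in 3.52% of 42641 H3K27ac regions of a wild-type library at 96 h. The sequence there was richer in G and C, at 54.5% against 47.1% around the 96 h only summits, and the words are AT-rich. In windows 500 bp to either side of the 96 h only summits the share was 9.26%.

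CDX2 is a homeodomain transcription factor of the posterior embryo. With CDX1 and CDX4 it acts downstream of Wnt signaling in axial progenitors, where it binds AT-rich words and helps to activate central Hox genes. H3K27ac is a histone mark of active promoters and enhancers that sits on the nucleosomes beside bound factors. NIPBL loads the cohesin complex, of which RAD21 is a subunit, and is commonly seen at active enhancers and promoters, whereas cohesin accumulates at CTCF sites. TCF/LEF factors carry the Wnt signal to DNA, and T-box factors such as Brachyury, the product of T, act in the primitive streak and early mesoderm.

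The sequences below come from the GRCm38 assembly, the mm10 build of the files. Each spans 50 bases to either side of the strongest CDX2 summit of 1 of 12 regions and is written on the plus strand. Capitals mark a CDX word on either strand, which was TTTATGA, its close form TTTATGG, the variant word TTTATTA or the variant word TTTATTG, or, in the Hoxb2 window, the TCF/LEF word CTTTGAT. The first 4 are among the 10 regions of highest significance and hold none of these words, and they are shown because 8 of those 10 held no CDX word.
Phf21b intron, chr15:84834669-84834769: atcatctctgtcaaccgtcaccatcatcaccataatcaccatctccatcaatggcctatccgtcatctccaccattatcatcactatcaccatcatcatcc
Kif6 intron, nearest start Rftn1, chr17:49872956-49873056: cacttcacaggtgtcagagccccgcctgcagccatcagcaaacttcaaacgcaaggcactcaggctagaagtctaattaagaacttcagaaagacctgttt
intergenic, nearest start Lpin1, chr12:16434358-16434458: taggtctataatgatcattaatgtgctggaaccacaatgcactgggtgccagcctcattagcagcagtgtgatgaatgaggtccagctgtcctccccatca
intergenic near Cox7a2, chr9:79752064-79752164: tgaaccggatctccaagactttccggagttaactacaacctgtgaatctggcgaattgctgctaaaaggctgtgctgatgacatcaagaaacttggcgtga

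The Hadhb window is shown because it shares a run of 30 bases with the Cox7a2 window on the opposite strand, on another chromosome.
Hadhb intron, chr5:30173362-30173462: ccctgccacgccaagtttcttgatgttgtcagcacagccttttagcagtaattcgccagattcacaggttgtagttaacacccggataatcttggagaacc

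The next windows show regions with a CDX word whose H3K27ac pattern is described further on. The Itga4 region carried H3K27ac in no library at 120 h and in every library at 96 h, the A4gnt region shows how the result depends on the distance allowed, and the Hes7 region was the strongest one beside a segmentation clock gene.
intergenic, nearest start Itga4, chr2:79152042-79152142: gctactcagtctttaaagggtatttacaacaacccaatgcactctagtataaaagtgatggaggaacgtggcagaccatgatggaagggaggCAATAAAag
upstream of A4gnt, chr9:99609438-99609538: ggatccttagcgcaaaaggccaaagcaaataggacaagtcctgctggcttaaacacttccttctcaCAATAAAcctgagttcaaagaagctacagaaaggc
upstream of Hes7, chr11:69119000-69119100: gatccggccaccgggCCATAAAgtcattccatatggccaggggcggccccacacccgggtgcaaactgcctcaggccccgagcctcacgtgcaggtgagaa

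The last 4 windows lie in Hox clusters. The Hoxa4 window holds 2 CDX words, and the Hoxd9 window overlaps an exon of the annotated miRNA gene Gm44463.
Hoxb9 intron, chr11:96272067-96272167: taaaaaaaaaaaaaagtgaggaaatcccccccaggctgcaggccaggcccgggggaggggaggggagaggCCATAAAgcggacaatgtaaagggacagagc
HoxD cluster, nearest start Hoxd9, chr2:74701060-74701160: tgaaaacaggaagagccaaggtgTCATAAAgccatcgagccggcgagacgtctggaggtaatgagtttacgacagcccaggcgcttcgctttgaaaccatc
Hoxa3 intron, nearest start Hoxa4, chr6:52194110-52194210: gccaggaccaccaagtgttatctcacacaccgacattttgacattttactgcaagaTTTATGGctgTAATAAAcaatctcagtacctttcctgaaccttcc
upstream of Hoxb2, chr11:96350280-96350380: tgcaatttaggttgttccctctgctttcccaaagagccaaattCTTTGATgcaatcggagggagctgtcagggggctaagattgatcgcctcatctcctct

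CDX2 coverage at the 96 h only regions was lower than at the shared regions, which is a description of the values that chose them. Fold enrichment over the local background had a median of 4.63 in the 96 h only regions, 6.49 in the shared regions and 4.61 in the 120 h only regions. The median significance, as −log10 of the q-value, was 5.40, 12.3 and 4.09 in the same order, and the highest value among the 96 h only regions was 62.3. By fold, 62.8% of them lay in the lower part of the 96 h list when that list is divided at its median. Their median width was 234 bp, against 311 bp in the shared regions and 211 bp in the 120 h only regions. In the list of 147 regions at 72 h, 27 of the 96 h only regions (0.899%) and 93 of the shared regions (6.21%) already had a counterpart.

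Library depth and the enrichment of the immunoprecipitation both limit how far absence at 120 h can be read, and enrichment was not compared here. The lowest local background, a stand-in for depth, was 2.47 fragments in the 120 h library and 2.70 in the 96 h library. By the study's sequencing totals the order was the reverse, with slightly more read pairs at 120 h than at 96 h. The smallest coverage called at 120 h was 11 fragments. The 96 h coverage was scaled to the 120 h library by the ratio of the lowest backgrounds. After that, 267 of the 96 h only regions (8.89%) fell below 11 fragments, whereas 1323 (44.1%) reached at least 1.5 times and 485 (16.2%) at least 2 times that level. Coverage of 11 fragments was called at the lowest background, and regions of higher local background need more. The 8.89% may therefore understate the share below the limit of calling. Most of these regions were not close to a 120 h region, since the median gap to the nearest was 261 kb and 52 lay within 1 kb. Just inside the rule, the 3 closest 96 h only regions lay 1, 165 and 191 bp from a 120 h region and had folds of 3.33, 5.79 and 3.62. Just outside it, the 3 shared regions with the least overlap had 45, 57 and 63 bp in common with a 120 h region and folds of 2.98, 5.73 and 5.68.

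H3K27ac was most frequent over the 96 h only regions at 96 h and 108 h. In the wild-type time course, the share of these regions that overlapped an H3K27ac region, taken in the order 48, 72, 84, 96, 108, 120, 132, 144 and 168 h, was 15.8, 19.6, 22.7, 36.3, 33.3, 25.6, 24.2, 17.3 and 24.1%. The single libraries outside 96 h and 120 h have no replicate, and the 144 h list was also the shortest. In the same libraries 16.2, 18.5, 23.5, 41.4, 38.9, 31.0, 31.6, 20.9 and 31.1% of the shared regions overlapped H3K27ac. Before 96 h the 2 sets were thus close to each other, and from 96 h onwards the shared regions were higher. At 96 h this order varied with CDX2 fold. In 4 bands from lowest to highest fold, the wild-type means at 96 h were 37.9, 35.3, 36.3 and 39.5% for 96 h only regions. For shared regions they were 36.7, 33.6, 41.6 and 46.8%. At 120 h the shared regions were higher in every band.

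**Figure D1:**
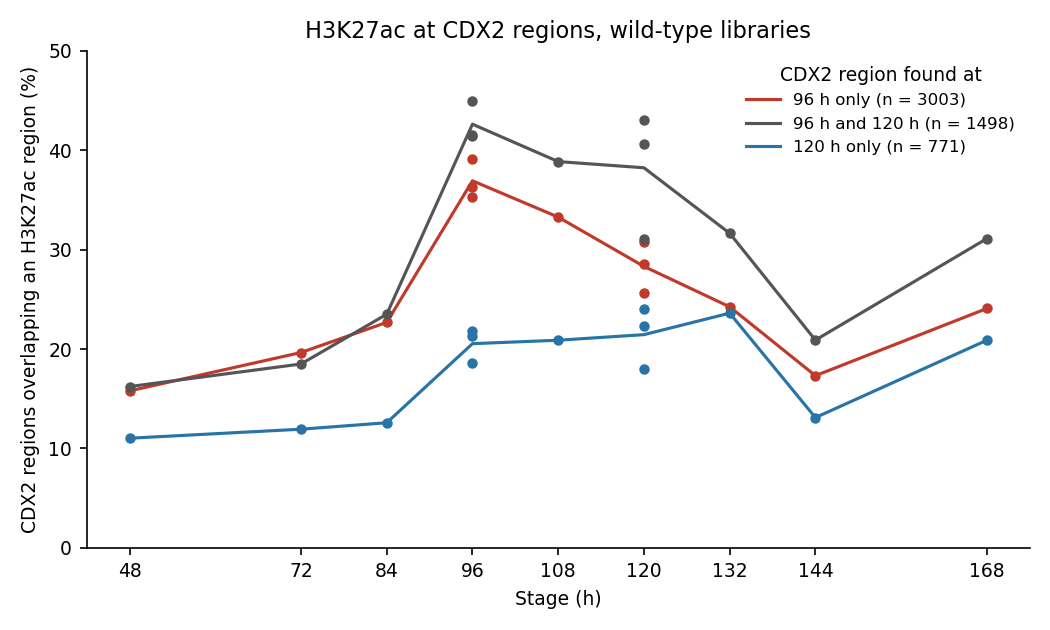
Share of CDX2 regions (%) that overlapped an H3K27ac region by stage (h) in wild-type libraries, with points for libraries and lines through the mean of each stage. The 3003 regions found at 96 h only averaged 28.3% at 120 h and 36.9% at 96 h, below the shared regions at both stages.

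The fall between the stages was tested over the 14 libraries with replicates. The share of 96 h only regions overlapping H3K27ac averaged 34.5% ± 6.3 at 120 h and 40.2% ± 3.5 at 96 h (SD, n = 7 each, 3 wild type and 2 of each mutant). It was lower at 120 h within each genotype: 28.3% against 36.9% in wild type, 36.5% against 41.2% in Del(CBS1) and 41.6% against 44.0% in Del(CBS1-2). The mean of the differences within genotypes was -5.23 percentage points by an exact two-sided permutation test of the stage labels within genotypes (p = 0.00278, the smallest that the 720 arrangements allow, and 0.00694 after Benjamini-Hochberg adjustment over 5 tests). The wild-type libraries did not overlap between the stages, with 25.6%, 28.6% and 30.7% at 120 h and 35.3%, 36.3% and 39.1% at 96 h. The list of wild-type replicate 3 at 120 h was the shortest of the 14, with 32590 regions, and leaving that library out gave a mean difference of -4.78. The difference was larger, with the same adjusted p, when the H3K27ac lists were restricted to peaks of −log10 q of at least 5 (-9.79) or cut to equal length (-8.54). The mutant lists were longer at 120 h (61894 to 63020 regions) than at 96 h (54957 to 56828), while their shares were lower at 120 h. To compare the sets within a library, the share over another set was then subtracted. The share over 96 h only regions minus that over shared regions was -10.6 percentage points at 120 h and -5.91 at 96 h, a difference of -4.80 (exact permutation p = 0.00833, adjusted p = 0.0139). Set against the 120 h only regions, the share over 96 h only regions was 7.76 percentage points higher at 120 h and 17.8 higher at 96 h, a difference of -10.1 (exact permutation p = 0.00278, adjusted p = 0.00694). By overlap, the share over 96 h only regions was thus lower at 120 h relative to both other sets. For the contrast with shared regions the libraries overlapped between the stages, at -12.8 to -5.43 at 120 h and -6.95 to -5.06 at 96 h.

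These tests count an H3K27ac region that touches the CDX2 region, and the difference was larger when acetylation beside it was counted too. An H3K27ac region lay within 500 bp of the summit at 55.7% ± 9.2 of 96 h only regions at 120 h and 72.8% ± 4.0 at 96 h (SD, n = 7 each), and the mean difference within genotypes was -16.2 percentage points (exact permutation test, adjusted p = 0.00694). Over the shared regions the same share was 72.3% ± 10.9 at 120 h and 77.6% ± 3.5 at 96 h. Over the 120 h only regions it was 56.3% ± 12.1 at 120 h and 48.6% ± 6.0 at 96 h, and the share over 96 h only regions minus that over 120 h only regions differed by -24.8 percentage points between the stages (exact permutation test, adjusted p = 0.00694). This wider window was chosen after seeing the data.

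**Figure D2:**
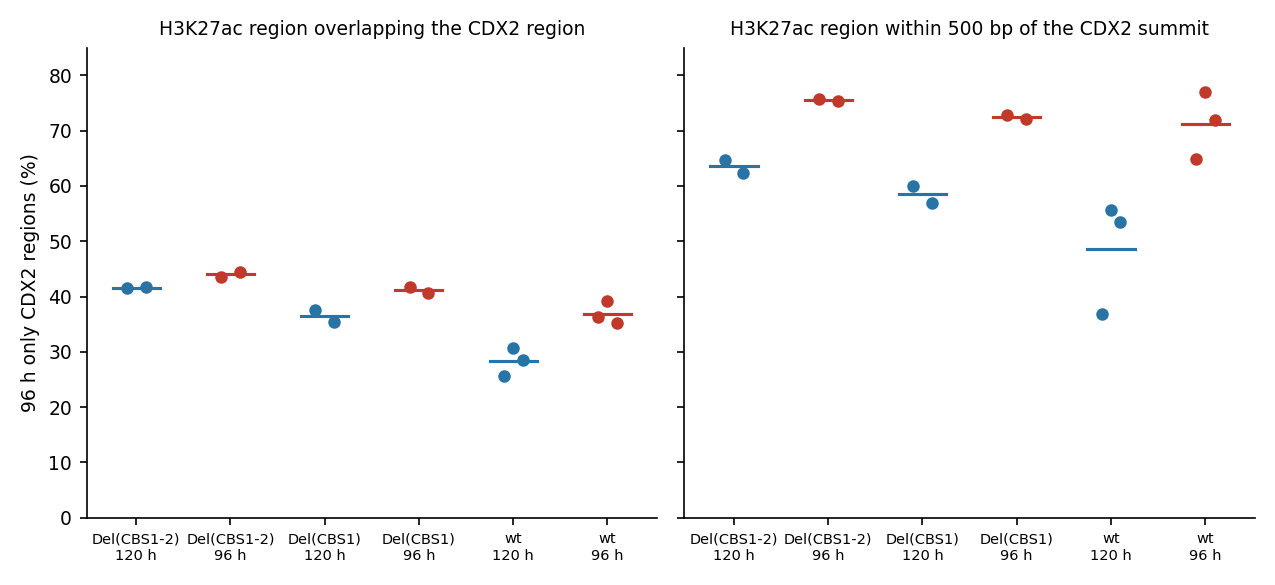
Share of the 3003 96 h only regions (%) with H3K27ac in each of the 14 libraries at 120 h (blue) and 96 h (red) by genotype, with points for libraries and lines for means, counted by overlap on the left and within 500 bp of the CDX2 summit on the right. In both panels the libraries at 120 h lie below those at 96 h within each genotype, and over all genotypes they averaged 34.5% at 120 h and 40.2% at 96 h by overlap.

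Both counts can be read from the position of the mark around the summit. At the CDX2 summit itself, H3K27ac regions covered 18.9% ± 3.9 of the 96 h only regions at 120 h and 16.9% ± 2.7 at 96 h. At 400 bp from the summit, on either side, they covered 32.8% ± 7.0 at 120 h and 54.0% ± 4.1 at 96 h. The dip at the summit was thus deeper at 96 h. Of the 96 h only regions that overlapped H3K27ac, the summit lay inside the acetylated region in 55.1% ± 7.9 at 120 h and 42.2% ± 7.6 at 96 h. The corresponding shares were 36.2% and 24.9% in the shared regions and 48.0% and 49.1% in the 120 h only regions. When overlap is counted only at the summit, the difference of 96 h only regions between stages was 2.48 percentage points (exact permutation test, adjusted p = 0.149), in the other direction and not past the threshold of 0.05. Counted in this way, the difference of 96 h only minus 120 h only regions was 0.65 (exact permutation test, adjusted p = 0.462), also in the other direction.

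**Figure D3:**
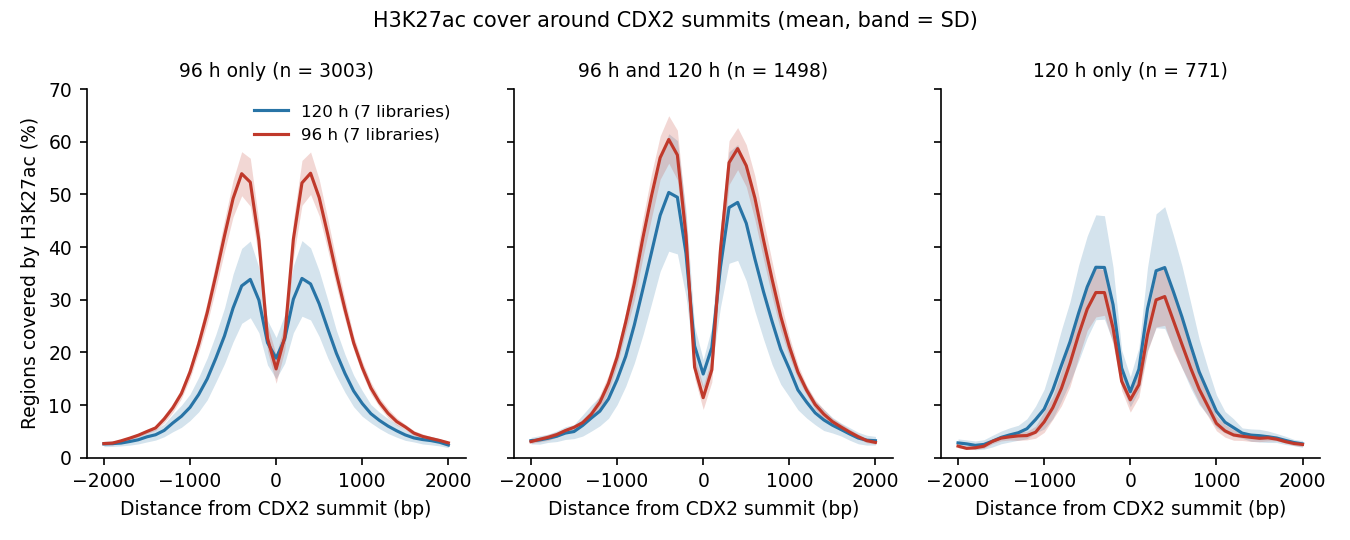
Share of CDX2 regions (%) covered by an H3K27ac region at each distance (bp) from the CDX2 summit, as the mean of 7 libraries at 120 h and 7 at 96 h with the SD as a band, in 1 panel per set. In the 96 h only regions the flanks at 400 bp were covered in 32.8% at 120 h and 54.0% at 96 h, and the summit in 18.9% and 16.9%.

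The height of the mark differed as well. Among the 96 h only regions that overlapped H3K27ac, the median of its highest coverage, divided by the lowest background of the library, was 10.1 to 11.3 in the 7 libraries at 120 h and 14.5 to 16.5 in the 7 at 96 h, without overlap between the stages. The same heights were 10.4 to 14.0 at 120 h and 16 to 20.3 at 96 h over the shared regions, also without overlap. No test of the difference between sets was made on heights.

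Few of the regions switched the mark cleanly. H3K27ac overlapped in no wild-type list at 120 h and in all 3 at 96 h at 99 of the 96 h only regions (3.30%), 25 shared regions (1.67%) and 8 of the 120 h only regions, against 2.5% of the 5272 CDX2 regions of both stages and 4.07% of the 97331 H3K27ac regions merged from the 6 lists. The opposite pattern was seen at 11 of the 96 h only regions (0.366%) and 26 shared regions (1.74%), against 0.816% of CDX2 regions and 3.28% of H3K27ac regions. Counted within 500 bp of the summit, 267 of the 96 h only regions (8.89%) held the mark in none of the lists at 120 h and all 3 at 96 h, against 6.07% of all CDX2 regions, which include them, and 43 shared regions (2.87%). The opposite pattern was then seen at 4 of the 96 h only regions, against 0.512% of all CDX2 regions. Conversely, 920 of the 96 h only regions (30.6%) had H3K27ac within 500 bp in all 6 lists and 16.7% had it in none. By this strict rule, absence of the CDX2 region and of acetylation from the 120 h lists coincided at a minority of the members. Of the 1804 members with H3K27ac within 500 bp in all 3 lists at 96 h, however, the 920 kept it in all 3 at 120 h. In the shared set 627 of 1027 such regions kept it, and in the 120 h only set 164 of 281. Incomplete keeping of the mark was thus not particular to the 96 h only regions.

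Named regions show these patterns library by library, with heights as multiples of the lowest background and 0 where no region was listed. A region in an intron of Tet3, which encodes an enzyme of DNA demethylation, had H3K27ac heights of 0, 0 and 0 in wild type at 120 h and 16.6, 16.1 and 16.3 at 96 h, and along the time course the mark was listed from 72 h to 96 h alone. An intron of Hadhb, a mitochondrial fatty acid oxidation gene, had 0, 0 and 0 at 120 h and 27.3, 24.7 and 22.5 at 96 h, with 19.1, 33.2 and 41.4 at 48, 72 and 84 h. The mark was thus listed at these 2 regions before 96 h as well, and 3 of the 8 mutant values for them at 120 h were above 0, at 4.19 to 5.97. In contrast, the region 103 kb upstream of Itga4, an integrin gene, had the mark at 96 h alone, with heights of 5.34, 6.55 and 5.17 there and 0 in every wild-type library of the other stages. The mutants followed the same order at the Itga4 region, with 0 in all 4 libraries at 120 h and 5.42 to 10.3 in the 4 at 96 h. In the other direction, a region 68.1 kb from the start of Fgf18, an FGF ligand gene, had heights of 14.1, 8.74 and 12.8 in wild type at 120 h and 0, 0 and 0 at 96 h. Of the 8 such regions named, 7 had H3K27ac within 500 bp of the summit in at least 1 wild-type library at 96 h, so the pattern depended on the window. Upstream of A4gnt the overlapping heights were 5.57, 5.72 and 4.57 at 120 h and 0, 0 and 0 at 96 h, whereas within 500 bp of the summit they were 5.57, 5.72 and 4.57 at 120 h and 25.1, 22.9 and 18.6 at 96 h. The mark there thus lay beside the CDX2 region at 96 h, and was higher than at 120 h.

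NIPBL was found at most of the 96 h only regions at 96 h and at progressively fewer up to 132 h. Taken in the order 72, 84, 96, 108, 120, 132, 144 and 168 h, the share that overlapped a NIPBL region was 13.5, 15.9, 70.6, 57.6, 36.5, 32.9, 52.3 and 45.7%, with a 95% exact binomial interval of 69.0% to 72.3% at 96 h. Such intervals, here and below, cover counting error only. The shared regions were at 14.6, 19.0, 78.0, 81.8, 69.8, 71.3, 87.5 and 80.3% along the same lists, and the 120 h only regions at 3.76, 3.89, 28.8, 39.0, 35.5, 49.0, 72.2 and 64.2%. The 96 h only regions were highest at 96 h and the other sets at 144 h, where the list was also the longest. With 1 library per stage the change between stages was not tested, and list lengths differed, but the sets are compared within a list. The 96 h only regions minus the shared regions gave -33.3 percentage points at 120 h and -7.41 at 96 h.

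Cutting all 8 NIPBL lists to the 4888 strongest regions lowered the shares, and the 96 h only regions were again below the shared ones at every stage. At 96, 108, 120 and 132 h the 96 h only regions were then at 23.9, 22.7, 13.1 and 10.8%, and the shared regions at 32.2, 48.5, 35.2 and 34.5%. In the cut lists the shared regions were thus highest at 108 h, with 36.2% at 144 h, and the 120 h only regions were highest at 144 h, with 28.4%. In the uncut lists, 613 of the 96 h only regions (20.4%) overlapped NIPBL at 96 h or 108 h and at no other stage. The same pattern was seen at 66 shared regions (4.41%) and 26 of the 120 h only regions (3.37%). The uncut 96 h list held 34332 regions and the 120 h list 18588, so list length enters these counts. How often NIPBL regions in general show this pattern was not counted. How far the 20.4% exceeds such a background is therefore not known. As CDX2 fold differed between the sets, they were also compared within 4 bands of fold. In every band NIPBL at 120 h was less frequent at 96 h only regions (35.0% to 40.1%) than at shared regions (55.7% to 77.6%). At 96 h, from lowest to highest fold, NIPBL was at 64.1, 69.3, 73.9 and 84.7% of 96 h only regions. The shared regions were then at 51.8, 64.7, 77.9 and 86.7%. At that stage the 96 h only regions were thus higher in the lower bands and slightly lower in the upper ones.

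NIPBL and H3K27ac did not mark all of the same regions. At 96 h, 890 of the 96 h only regions (29.6%, interval 28.0% to 31.3%) overlapped NIPBL without overlapping H3K27ac in any of the 3 wild-type lists, 94 (3.13%) overlapped H3K27ac in all 3 without NIPBL, and 611 (20.3%) had neither mark. The shared regions were close in the first respect, with 29.4% for NIPBL alone, and 14.8% had neither mark. These counts are by overlap, and H3K27ac in any of the 3 lists overlapped 50.0% of the 96 h only regions but lay within 500 bp of the summit at 80.8%, so the shares without the mark depend on that rule. The strongest 96 h only region, in an intron of Phf21b, a PHD finger gene, had a CDX2 fold of 14.6 and a NIPBL height of 17.4 at 96 h and of 0 at the other 7 stages, and no H3K27ac in any of the 21 lists. A region 196 kb upstream of Med30, a Mediator subunit gene, had NIPBL heights of 5.49, 18.8, 7.66 and 4.91 at 84, 96, 108 and 120 h, also without H3K27ac. At a region near Lpin1 with a CDX2 fold of 14.1, neither NIPBL nor H3K27ac was listed at any stage.

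**Figure D4:**
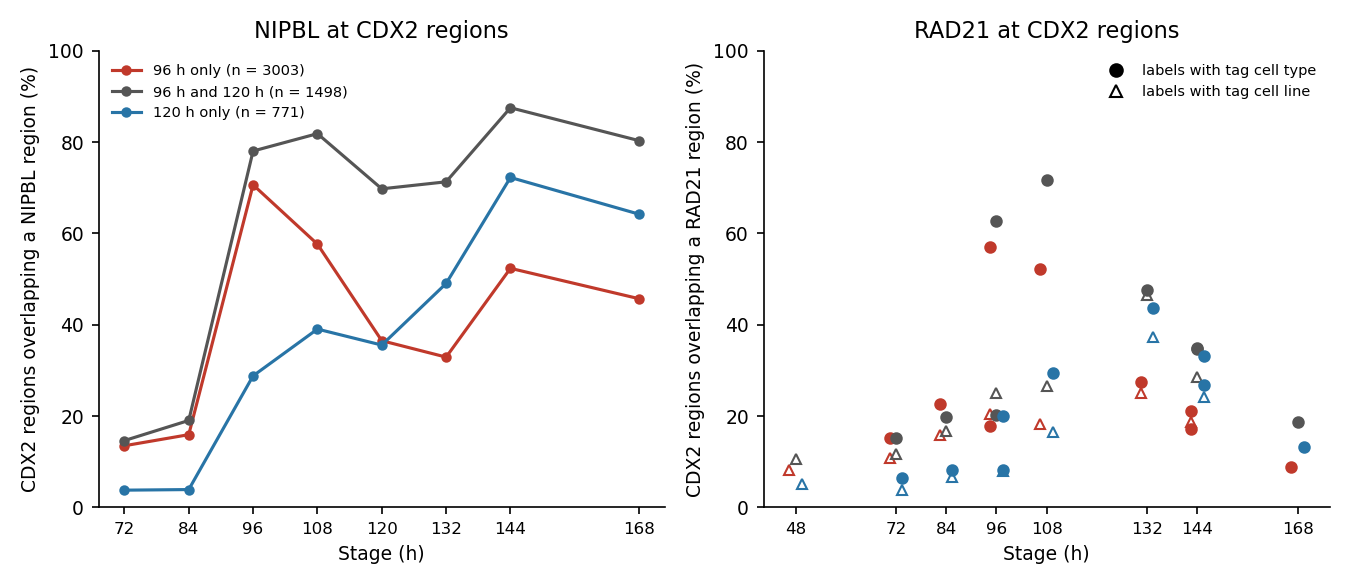
Share of CDX2 regions (%) that overlapped NIPBL by stage (h, 1 library per stage) and RAD21 by stage (h, 1 point per library), by set of regions in colour, with filled points and triangles for the 2 kinds of sample label. NIPBL at the 96 h only regions was 36.5% at 120 h and 70.6% at 96 h, and RAD21 replicate 1 at 96 h, at 57.0%, stands above the other 2 libraries of that stage.

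RAD21 gave a less clear picture, with 1 library at 96 h apart from the others. The share of 96 h only regions overlapping RAD21 was 21.1%, 17.2% and 18.6% in replicates 1 to 3 at 144 h and 57.0%, 17.8% and 20.5% in replicates 1 to 3 at 96 h. The difference of -12.8 percentage points did not pass the test (exact two-sided permutation, n = 3 each, p = 0.6, adjusted p = 0.6, where the smallest p is 0.1), and it was -0.18 without replicate 1 at 96 h. Within the 2 kinds of sample label that the submitters used, it was -18.2 for libraries labelled by cell type, which include that replicate, and -1.90 for those labelled by cell line. Relative to the shared regions, the 96 h only regions were 13.8 percentage points lower at 144 h and 4.22 points lower at 96 h, a difference of -9.55 with all 3 libraries of 144 h beyond all 3 of 96 h. That separation gives the smallest p that this design allows, 0.1 by the exact test (adjusted p = 0.125), and without replicate 1 at 96 h the difference was -10.3 (exact p = 0.1, adjusted p = 0.125). With RAD21 peaks of −log10 q of at least 5 it was -3.92 (exact p = 0.2, adjusted p = 0.25), and the stages were then no longer fully separated. RAD21 replicate 1 at 108 h was also high, at 52.1%, against 18.2% in replicate 2 of that stage. The 120 h only regions went the other way, with 24.3% to 33.2% at 144 h and 7.91% to 20.0% at 96 h.

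RAD21 overlap was most frequent at CTCF sites. CTCF was listed at 72 h or 168 h at 305 of the 96 h only regions (10.2%) and 171 shared regions (11.4%). At the 305 regions RAD21 was found in 74.1% to 77.7% at 144 h and in 69.5% to 91.8% at 96 h. At the remaining 2698 it was found in 10.8% to 14.9% at 144 h and, in replicates 2 and 3, in 12% and 14.9% at 96 h, while replicate 1 at 96 h gave 53.1%. Away from CTCF the shared regions were at 21.2% to 29.3% at 144 h. H3K27me3, the Polycomb mark, was rare: it was listed in any wild-type library at 96 h at 35 of the 96 h only regions (1.17%), 68 shared regions (4.54%) and 12.3% of 120 h only regions. RNA polymerase II overlapped 10.1% to 19.4% of the 96 h only regions over the 8 stages.

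CDX words were less frequent at the 96 h only regions than at the other CDX2 regions. Within 50 bp of the summit, 1015 of them (33.8%, interval 32.1% to 35.5%) held at least 1 of the 4 words, against 49.0% of shared regions and 41.5% of 120 h only regions. The background was 9.26% in windows 500 bp to either side of the 96 h only summits and 3.52% at H3K27ac regions. More than 1 CDX word was found in 4.90% of 96 h only regions, 13.5% of shared and 9.08% of 120 h only regions. Within bands of CDX2 fold the share ran from 25.7% to 39.8% at 96 h only regions and from 35.8% to 53.1% at shared regions. All 4 words were rarer at 96 h only than at shared regions, for example TTTATGA at 8.09% against 15.3% and TTTATGG at 11.1% against 18.4%.

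Words of other factors did not follow the CDX order. The TCF/LEF word CTTTGAT was found at 7.16% of 96 h only regions (interval 6.26% to 8.14%), 4.27% of shared and 1.69% of 120 h only regions, against 1.70% in the windows 500 bp away and 1.15% at H3K27ac regions. The T-box word GGTGTGA was found at 3.70%, 2.34% and 1.43% in the same order, against 1.18% in the windows 500 bp away. The SOX word ATTGTT went the other way, with 8.49% of 96 h only, 13.2% of shared and 13.7% of 120 h only regions and 5.66% in the windows 500 bp away. The octamer ATGCAAAT (0.966%), the GATA word AGATAA (4.93%) and the AP-1 word TGANTCA (2.20%) had intervals that overlapped those of their shares 500 bp away (0.599%, 5.86% and 2.76%). All words were searched on both strands, and a match is a description of the sequence, not of binding. Of the 96 h only regions, 1758 (58.5%) held none of the CDX, TCF/LEF and T-box words. In the 99 regions with H3K27ac in no wild-type list at 120 h and all 3 at 96 h, 15 held the TCF/LEF word (15.2%, interval 8.74% to 23.8%). No test was made on word shares.

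**Figure D5:**
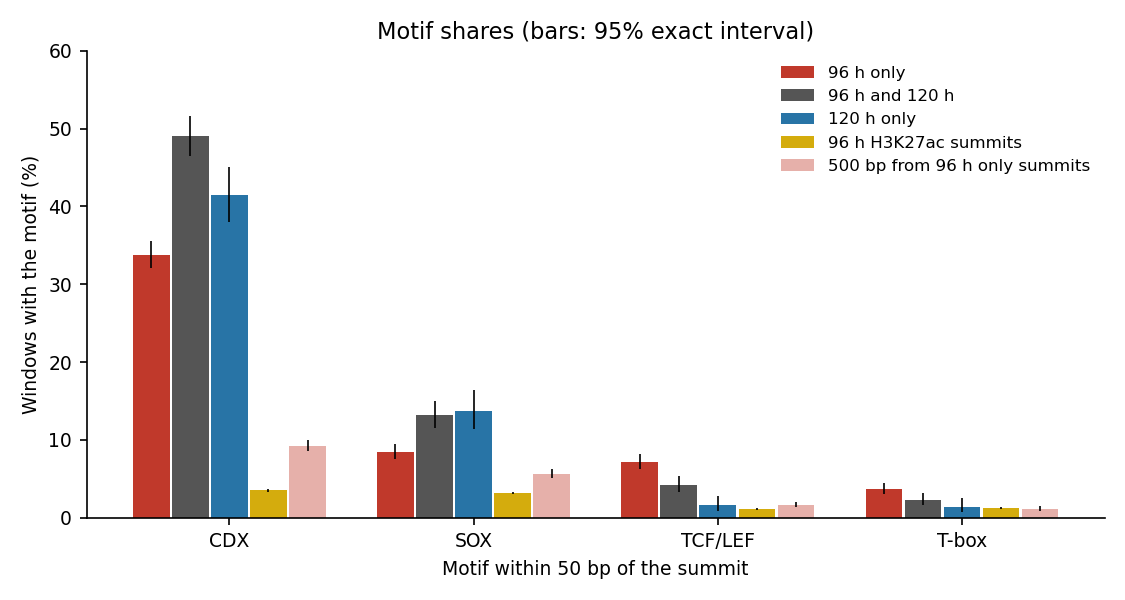
Share of windows (%) that hold each word within 50 bp of their centre, at CDX2 summits of the 3 sets, at windows 500 bp from the 96 h only summits and at H3K27ac regions of 96 h, with 95% exact binomial intervals as bars. CDX words were at 33.8% of 96 h only and 49.0% of shared regions, and the TCF/LEF word at 7.16% and 4.27%.

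Regions with NIPBL held fewer CDX words. Of the 2121 96 h only regions that overlapped NIPBL at 96 h, 29.3% (interval 27.4% to 31.3%) held a CDX word, against 44.6% (41.2% to 47.9%) of the 882 that did not. The order was the same in the shared regions (46.7% and 57.1%) and the 120 h only regions (33.3% and 44.8%). Of the 50 96 h only regions of highest significance, 14 (28.0%, interval 16.2% to 42.5%) held a CDX word. NIPBL was found at 52.0% of these 50 at 120 h and 90.0% at 96 h. Sequence repeated between members was uncommon: 155 of the 3003 windows (5.16%), 4 of the top 50 among them, shared a run of 25 bases with another window, as the Cox7a2 and Hadhb windows printed above do. The Cox7a2 region had H3K27ac heights of 10.8, 0 and 6.70 at 120 h and 33.1, 30.6 and 27.7 at 96 h in wild type. The part of repeated sequence in these values was not tested.

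Most of the 96 h only regions were far from gene starts. The summit lay within 1 kb of the start of a protein-coding gene at 298 (9.92%, interval 8.88% to 11%), against 5.27% of shared regions, 8.69% of 120 h only regions and 34.7% of H3K27ac regions. The median distance was 37.4 kb, and 45.7 kb, 41.7 kb and 11.5 kb in those sets. Beyond 1 kb, 37.0% of 96 h only regions were intronic, 51.3% intergenic and 1.70% exonic. Regions near starts differed from the others in the marks: H3K27ac overlapped 64.8% ± 3.7 of the 298 in wild type at 120 h and 70.5% ± 5.1 at 96 h, and 24.3% ± 3.1 at 120 h and 33.2% ± 2.3 at 96 h of the 2705 farther away (SD, n = 3 each). NIPBL was found at 73.5% of the 298 at 120 h and 90.6% at 96 h, and at 32.4% and 68.4% of the others. CDX words were at 19.8% near starts and 35.3% farther away.

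By the nearest start, 2271 of 21827 protein-coding genes (10.4%) had at least 1 of these regions, 326 had 2 and 156 had 3 or more. A nearest gene is a label of position and was not shown to be the target. The most regions, 8 each, were nearest to Lrmda, to Sall1, a zinc finger gene of limb and kidney development, and to Sox9, a gene of neural crest and cartilage. Sox9 had none of the shared regions in its surroundings, and Lrmda had 7. Next came Zfp703 with 7 and Adgrl2, Ror2, Tenm3, Tle3 and Wwox with 6 each. Ror2 encodes a receptor of Wnt5a, and Tle3 encodes a corepressor that binds TCF/LEF factors. The 11 genes with 5 regions were 1600014C10Rik, Celf4, Cited2, Gli3, Pax3, Pdzrn3, Sox2, Sox4, Sp4, Tle4 and Wnt5b. Several of these have long stretches without another gene start, from 0.062 Mb around 1600014C10Rik to 2.76 Mb around Tenm3.

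Developmental genes were read through 14 lists, beside the 10.4% of all genes. At least 1 of the regions was nearest to 14 of 18 genes of the Cdx and axial progenitor list, 12 of 16 of the primitive streak list, 14 of 22 of the FGF list, 12 of 20 neural genes, 11 of 19 Notch and clock genes and 17 of 31 Wnt genes. The counts were 9 of 18 for paraxial mesoderm, 7 of 15 for naive pluripotency, 16 of 39 for Hox genes and 7 of 18 for retinoic acid genes. They were lowest for TGFβ, Nodal and BMP genes (6 of 22), cardiac and vascular genes (4 of 18), formative epiblast genes (4 of 13) and endoderm genes (5 of 16). The 1498 shared regions were nearest to 1181 of all 21827 genes, with 13 of 18 Cdx and axial progenitor, 15 of 39 Hox and 10 of 31 Wnt genes. They were nearest to 5 of 16 primitive streak, 3 of 19 Notch and clock and 0 of 13 formative epiblast genes. For the remaining lists the shared regions were nearest to 8 of 22 FGF, 7 of 20 neural, 5 of 18 paraxial mesoderm and 5 of 18 cardiac and vascular genes. The counts were 4 of 16 for endoderm, 4 of 15 for naive pluripotency, 4 of 18 for retinoic acid and 2 of 22 for TGFβ, Nodal and BMP genes. Apart from the formative epiblast list, such nearness was thus not particular to the 96 h only regions. Genes of these lists have a median stretch of 0.011 Mb (Hox genes) to 0.190 Mb (naive pluripotency) to their neighbours, against 0.047 Mb over all genes, and its part in the counts was not tested.

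Acetylation beside the regions of these lists can be set against all 3003, of which 974 (32.4%) had H3K27ac within 500 bp in all 3 wild-type lists at 120 h and 1804 (60.1%) at 96 h. It was present at 10 of 29 regions at 120 h and 24 at 96 h in the Cdx and axial progenitor list, 6 of 19 and 14 in the primitive streak list, 11 of 35 and 28 in the Wnt list, and 1 of 10 and 5 in the naive pluripotency list. The retinoic acid list had 9 of 11 at 120 h and 11 at 96 h. These lists overlap in genes, and no test of a list was made.

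Among genes of the streak and presomitic mesoderm, H3K27ac within 500 bp in no wild-type list at 120 h and all 3 at 96 h was seen at 4 of the 19 regions of the primitive streak list and 5 of the 19 of the paraxial mesoderm list, against 267 of all 3003 (8.89%). The Mesp2 region and the Msgn1 region at -23.5 kb count in both lists. Other lists ranged from 0 of 11 regions for retinoic acid to 2 of 7 for formative epiblast and 4 of 10 for naive pluripotency. The pattern was thus not particular to streak and mesoderm genes. The examples were chosen after their values were seen. Mesp2, a gene of somite boundary formation, had a region 0.03 kb from its start with a CDX2 fold of 8.43, no H3K27ac list at 120 h and 3 at 96 h, and NIPBL at 120 h as well as 96 h. T had such a region at -19.9 kb (fold 5.12, 0 lists at 120 h and 3 at 96 h), while its region at -25.3 kb had 3 lists at both stages. Msgn1, a presomitic mesoderm factor, had 0 lists at 120 h and 3 at 96 h at -23.5 kb, 2 and 3 at -9.20 kb and 3 and 3 at -0.19 kb. Fgf8, the FGF ligand of the tail bud, had 0 and 3 lists at 19.7 kb and 3 and 3 at 7.35 kb. The regions of 1 gene thus differed among themselves: at Msgn1 and Fgf8 the region nearest the start had the mark in all 3 lists at both stages, and at T it was the farther one. Ripply2, a somite boundary factor, had 0 lists at 120 h and 3 at 96 h at -35.3 kb.

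Wnt and FGF genes gave further examples. Lef1, a TCF/LEF factor gene, had 0 lists at 120 h and 3 at 96 h at 47.3 kb, 2 and 3 at -25.6 kb, and 0 and 1 at -135 kb. Axin2, a Wnt feedback gene, had 1 list at 120 h and 3 at 96 h at -13.3 kb, where the CDX2 fold was 7.17 and a CDX word was present. At the start of Sp5, a direct Wnt target in the tail bud, a region with a CDX2 fold of 5.37 held both a CDX and a TCF/LEF word and had 1 list at 120 h and 3 at 96 h, with NIPBL listed at 72, 96, 120 and 144 h. The other regions of Sp5 had 1 list at 120 h and 3 at 96 h at -2.83 kb, and 3 lists at both stages at -18.6 and -31.0 kb. Wnt5b had 5 of the 96 h only regions and no shared one, and 4 of the 5 had H3K27ac in fewer lists at 120 h than at 96 h. Over all 3003 regions, 32.4% had the mark in all 3 lists at 120 h and 60.1% at 96 h, so a fall in lists was common. The share of all regions with fewer lists at 120 h is not given here. Cdx4 had 3 regions, at -39.8, -15.8 and 5.26 kb, with 1, 1 and 2 lists at 120 h and 3 each at 96 h. Both regions of Klf5, a pluripotency factor gene, at -22.7 and 41.0 kb, and the region of Fgf4, an FGF ligand gene of the epiblast, had 0 lists at 120 h and 3 at 96 h. All 3 lists at 120 h and none at 96 h was seen at no region of the 14 lists and at 1 of the 116 regions of the 20 genes with the most regions, at 7.49 kb from Zfp703, against 4 of all 3003 regions (0.133%).

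Hes7, an oscillating repressor of the segmentation clock, had 3 of these regions between -9.81 and -1.35 kb of its start and no shared or 120 h only region. The strongest, 1.35 kb upstream, had a CDX2 fold of 8.67 and a CDX word. H3K27ac heights within 500 bp of it were 20, 19.8 and 21 at 120 h and 70.8, 64.3 and 63.3 at 96 h in wild type. In the mutants they were 23.0 to 25.8 at 120 h and 69.9 to 76.0 at 96 h. All 7 libraries at 120 h were below all 7 at 96 h, although the mark was listed in each of them. From 72 h to 168 h, over the 8 stages, NIPBL heights there were 0, 12.6, 30.6, 20.1, 18.2, 12.2, 10.3 and 8.06.

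In and around the 4 Hox clusters, taken as the genes with 50 kb to each side, 18 of the 96 h only regions were found beside 27 shared and 4 of the 120 h only regions. HoxA held 4 of them, HoxB 6, HoxC 6 and HoxD 2, and 9, 8, 7 and 3 shared regions in the same order of clusters. CDX words were at 11 of the 18 regions nearest to a Hox gene. The Hoxd9 region, 3.38 kb from the start, was the strongest of them with a CDX2 fold of 8.88. Within 500 bp of its summit H3K27ac heights in wild type were 0, 0 and 0 at 120 h and 12.3, 10.4 and 8.53 at 96 h. The mutants did not share that order, with 18.6 and 19.5 at 120 h and 11.3 and 14.1 at 96 h in Del(CBS1), and 38.6 and 38.2 at 120 h and 9.15 and 9.76 at 96 h in Del(CBS1-2). Both mutants lack CTCF sites of this same cluster. The height in the wild-type time course was 63.5 at 168 h. NIPBL was listed there at 96 h alone, with a height of 10.1.

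The other Hox regions varied in their marks. At the start of Hoxd4 the H3K27ac heights were 46.5, 39.7 and 19.8 within 500 bp at 120 h and 76.7, 64.9 and 53.8 at 96 h in wild type, without overlap. In the intron of Hoxb9 they were 37.0, 24.9 and 28.6 at 120 h and 34.5, 36.9 and 44.2 at 96 h, which overlap. Beside Hoxc4, at 8.06 kb, they were 21, 21.9 and 16.8 at 120 h and 64.7, 58.3 and 47.5 at 96 h. At the Hoxc9 region they were 37.3, 0 and 24.1 at 120 h and 18.2, 14.3 and 20.4 at 96 h, which overlap, and the time course gave 20.4, 22.2, 24.1, 39.6, 32.7 and 61.7 from 96 h to 168 h. The Hoxb2 region, whose window holds the TCF/LEF word and no CDX word, had no overlapping H3K27ac or NIPBL in any list. Within 500 bp, however, its H3K27ac heights were 37.3, 33.6 and 42.3 at 120 h and 60.7, 49.4 and 59.9 at 96 h. Upstream of Hoxc10 and of Hoxb13, NIPBL did not overlap and H3K27ac was not within 500 bp in any list.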

How the data were processed

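Chromatin immunoprecipitation libraries of stembryos were read as peak lists, 1 per library. Of 82 samples, 64 lists were used and 16 were left out because their samples or marks enter no comparison made here, 1 of them a list that the authors merged from 3 libraries. The submitters' processing notes name cutadapt 1.16, Bowtie2 2.3.4.1, SAMtools 1.8, MACS2 2.1.1.20160309 and the build mm10. The authors called peaks in each library, and the deposited columns hold the fold enrichment at the summit over local background, the −log10 of the p-value and q-value, and the summit's offset from the peak start. Peaks with the same coordinates were merged into 1 region. Read totals are not in these lists, so precision rests on the number of regions. The coverage of each summit was recovered as the whole number that gives both the deposited fold and the −log10 p-value within 0.001, which succeeded for 89.5% to 100% of the peaks of a list.

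Overlap means 1 base or more on the 21 assembled chromosomes. Start sites were 41438 starts of protein-coding genes in GENCODE M21. Shares were compared by exact two-sided permutation of stage labels within genotypes, with Benjamini-Hochberg adjustment over 5 tests and a threshold of 0.05. Python 3.11.15 with numpy 2.4.6, pandas 2.3.3, scipy 1.17.1 and matplotlib 3.10.9 was used, and the scripts were tested on simulated data. Regions named in the text were the 10 of highest −log10 q, those within 50 kb of a Hox cluster, and up to 8 each with H3K27ac in all 3 wild-type lists of one stage and none of the other. Named genes were the 20 with the most regions and members of 14 gene lists. The regions and lists were chosen with earlier results of these data known. Genes of the lists whose single regions are described were chosen after their values were seen. Alternatives covered peak thresholds, list lengths, windows, the start annotation, each library left out, and replicate numbers as blocks. The result for 1 named region is not reported here.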

Additional observations from a re-analysis of the deposited data

How the results depend on the processing

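The H3K27ac differences depended on where the mark was counted. With the CDX2 summit inside the H3K27ac region, the difference of 96 h only regions between 120 h and 96 h was 2.48 percentage points (exact permutation test, adjusted p = 0.149), and that of 96 h only minus 120 h only regions 0.65 (adjusted p = 0.462), both in the other direction. The profile around the summit gives the values behind this. The number of 96 h only regions was 1887 with CDX2 peaks of −log10 q of at least 5 and 1097 with the 96 h list cut to the length of the 120 h list. NIPBL at 96 h was at 52.4% with NIPBL peaks of −log10 q of at least 5 and 23.9% with lists cut to equal length. The share with a CDX word was 18.6% in windows of 50 bp, 46.3% in windows of 200 bp and 38.8% for regions of −log10 q of at least 5. The share near a start was 13.4% with all annotated genes and 14.0% within 2.5 kb.

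Leaving out 1 library at a time moved the H3K27ac difference between -5.64 and -4.78, that relative to shared regions between -5.55 and -4.41 and that relative to 120 h only regions between -10.4 and -9.87, with adjusted p of 0.00463 to 0.0185. The RAD21 difference ran between -19.8 and -0.18, the last without replicate 1 at 96 h, and that relative to shared regions between -11.5 and -7.57, none past the threshold. Of all recomputed values, 82 kept their direction and their side of the threshold or stayed within the spread, 2 reversed and 9 moved.

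With the replicate number as a block, the H3K27ac differences were -5.23, -4.80 and -10.1 (exact test, adjusted p = 0.0260 each), and the RAD21 differences -12.8 (adjusted p = 0.25) and -9.55 (adjusted p = 0.3125), so no call changed. Same-numbered libraries correlated at 0.0068 to 0.114 for H3K27ac and 0.0049 to 0.114 for RAD21, not all above 0.1. The highest for H3K27ac was wild-type replicate 3, whose titles carry no replicate number at either stage and whose overlapping H3K27ac regions were the widest in wild type (medians of 562 bp at 120 h and 587 bp at 96 h, against 345 to 420 bp). Whether the numbers pair the other libraries is not given.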

Other observations

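Of the 96 h only regions, 5.16% shared a run of 25 bases with another of them within 50 bp of the summit, and 4 of the 50 regions of highest significance did so. RNA polymerase II overlapped 19.4% of the 96 h only regions at 72 h, its highest share over 8 stages, against 16.7% of shared regions and 6.23% of 120 h only regions in the same list. That list was also the longest for polymerase, with 20672 regions against 12304 to 15855 at the other stages, so list length enters the comparison between stages. The 479 genes that were nearest to both a 96 h only and a shared region accounted for 833 of the 96 h only regions (27.7%).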
